A study of Mus musculus with 15 samples.

Results

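Brown adipose tissue can spend energy as heat by cycles that consume ATP and do no net work, alongside the proton leak through UCP1. In the creatine cycle, creatine is made from arginine and glycine by GATM and GAMT or taken up by SLC6A8, creatine kinase B (CKB) phosphorylates it with ATP, and tissue-nonspecific alkaline phosphatase, encoded by Alpl, hydrolyses phosphocreatine again. In the calcium cycle, SERCA2, encoded by Atp2a2, pumps calcium into the endoplasmic reticulum at the cost of ATP, and the ryanodine receptor RYR2 lets it out. The calcium cycle is known mainly from beige fat, and the creatine cycle from beige and brown fat of mice.

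The 7 genes Ckb, Alpl, Gatm, Gamt, Slc6a8, Atp2a2 and Ryr2 were taken by symbol from a table of 24030 gene symbols, and all 7 were found and were among the 15083 genes tested. They were described across 15 bulk RNA-seq libraries of mouse brown adipose tissue, from BDJ1KO mice, in which DJ-1 (the redox-sensitive protein encoded by Park7) is deleted in brown adipose tissue, and from flox mice, which the sample labels call WT. The mice were kept at 29 °C, near a mouse's thermoneutral zone, or at room temperature, which is below that zone, for 8 weeks. There were 3 libraries of KO at 29 °C, 4 of WT at 29 °C, 4 of KO at room temperature and 4 of WT at room temperature. The Cre driver, strain, age and sex of the mice, and whether each library is a separate animal, are not given in the sources used here. P-values therefore measure the spread between these libraries, which may be technical. In bulk tissue, fewer cells of a type and less RNA per cell cannot be told apart.

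Library totals were between 23977448 and 38800967 estimated counts, and levels below are CPM, read counts relative to the TMM-scaled library total. Park7 in KO was 26.8% of WT at 29 °C and 25.6% of WT at room temperature (exact two-sided permutation p = 0.0286 for both, the smallest p that these group sizes allow). All 12 brown adipocyte markers were detected in every library. Their summed level was 9294 to 11993 CPM in KO at 29 °C, 3076 to 4193 CPM in WT at 29 °C, 8051 to 14496 CPM in KO at room temperature and 12064 to 14419 CPM in WT at room temperature. Ucp1, the gene of the proton-leak protein, is 1 of these 12 markers, so its level is not a separate observation. It made up 6933 of the 10185 CPM in KO at 29 °C replicate 1 and 839 of the 4193 CPM in WT at 29 °C replicate 1. Ucp1 was lowest in WT at 29 °C, at 1019 ± 203 CPM (SD, n = 4), against 7233 ± 1240 CPM in KO at 29 °C (n = 3). At room temperature it was at 7001 ± 2502 CPM in KO and 8602 ± 1022 CPM in WT (n = 4 each). Skeletal muscle markers summed to 619 and 2032 CPM in KO at 29 °C replicates 2 and 3 and to 1621 CPM in WT at 29 °C replicate 2, against at most 30.4 CPM in the other 12 libraries. Heart muscle markers summed to 60.0 CPM in WT at room temperature replicate 1, against at most 4.68 CPM elsewhere.

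In WT tissue, housing at 29 °C moved all 7 genes, those of the creatine cycle in both directions and the 2 of the calcium cycle downward. Ckb, Gatm, Gamt and Slc6a8 rose, while Alpl, Atp2a2 and Ryr2 fell. For Ryr2 the WT libraries overlapped between temperatures, with 6 to 8 counts at 29 °C and 5 to 70 at room temperature. The library with 70 counts was the one with heart muscle transcripts. Ckb was 3.15-fold higher and Atp2a2 3.29-fold lower. The 4 rises and 3 falls stood against a background of 35.9% of all tested genes called higher and 32.8% called lower at an adjusted p under 0.05 (edgeR's quasi-likelihood test with Benjamini-Hochberg adjustment over all genes tested). The median log2 fold change was 0.50 over the 7 genes and 0.06 over all tested genes.

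In KO tissue the same change of housing moved 3 of the 7. Slc6a8 rose, and Alpl and Atp2a2 fell, against a background of 24.3% of tested genes called higher and 21.7% called lower. The median log2 fold change was 0.50 over the 7 genes and 0.04 over all.

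Between genotypes at 29 °C, Atp2a2 and Slc6a8 were higher in KO and Ckb was lower. The other 4 did not pass the test. The background was 24.7% of tested genes called higher in KO and 20.0% called lower, and the median log2 fold change was -0.0039 over the 7 genes and 0.04 over all.

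At room temperature none of the 7 passed the test between KO and WT with edgeR. The background was 0.0530% of tested genes called higher in KO and 0.186% called lower. At an unadjusted p under 0.05 (edgeR), 4 of the 7 (Ckb, Gamt, Slc6a8 and Ryr2) were below the limit. The share of all tested genes below that unadjusted limit is not given here, so the count gives no result about the 7. DESeq2 called 1 of the 7, Ryr2, among 228 genes over all, where edgeR called 36. The median log2 fold change was -0.20 over the 7 genes and 0.01 over all.

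The interaction is the genotype difference at 29 °C minus that at room temperature. It was positive for Atp2a2, Slc6a8 and Ryr2 and negative for Ckb and Gamt, against a background of 16.0% of tested genes called positive and 12.3% called negative. The median was -0.05 over the 7 genes and 0.01 over all. The 5 comparisons share libraries, each group entering more than 1 of them, and are not independent of each other. Leaving out the 3 libraries with skeletal muscle transcripts leaves 1 library of KO at 29 °C, which is assumed to vary like the others. The interactions of these 5 genes kept their sign in that fit. The calls of Slc6a8, Gamt, Ckb and Ryr2 did not hold in it, and their sizes are given with each gene below.

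**Figure D1:**
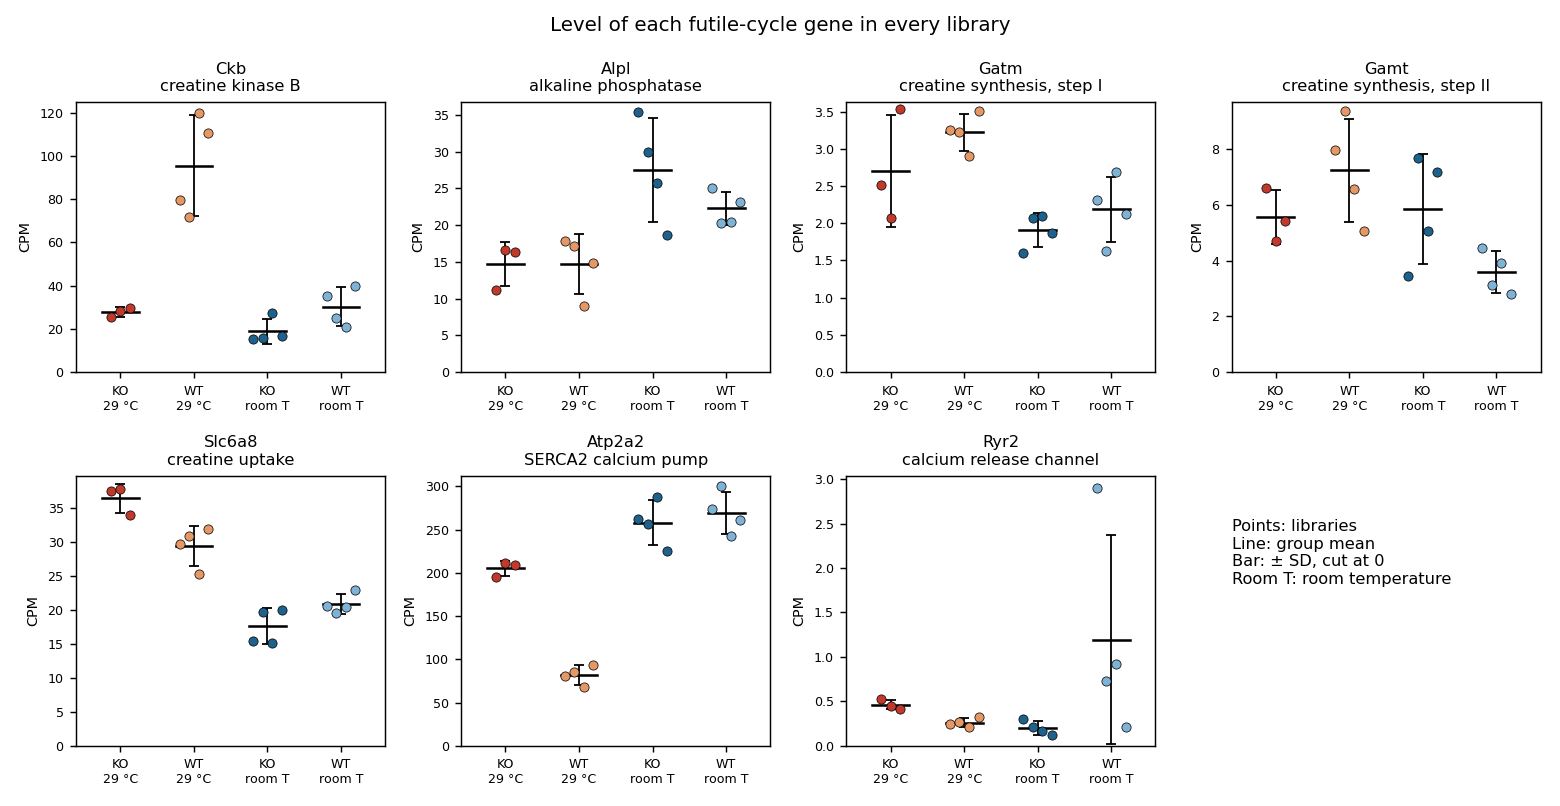
CPM of each of the 7 genes on the y axis in every library, by group on the x axis (points, libraries; horizontal line, group mean; bar, ± SD, not drawn below 0). Ckb stands at 71.9 CPM or more in all 4 libraries of WT at 29 °C and at 40.0 CPM or less in all others, and Atp2a2 at 94.0 CPM or less in WT at 29 °C and at 195.7 CPM or more in all others.

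**Figure D2:**
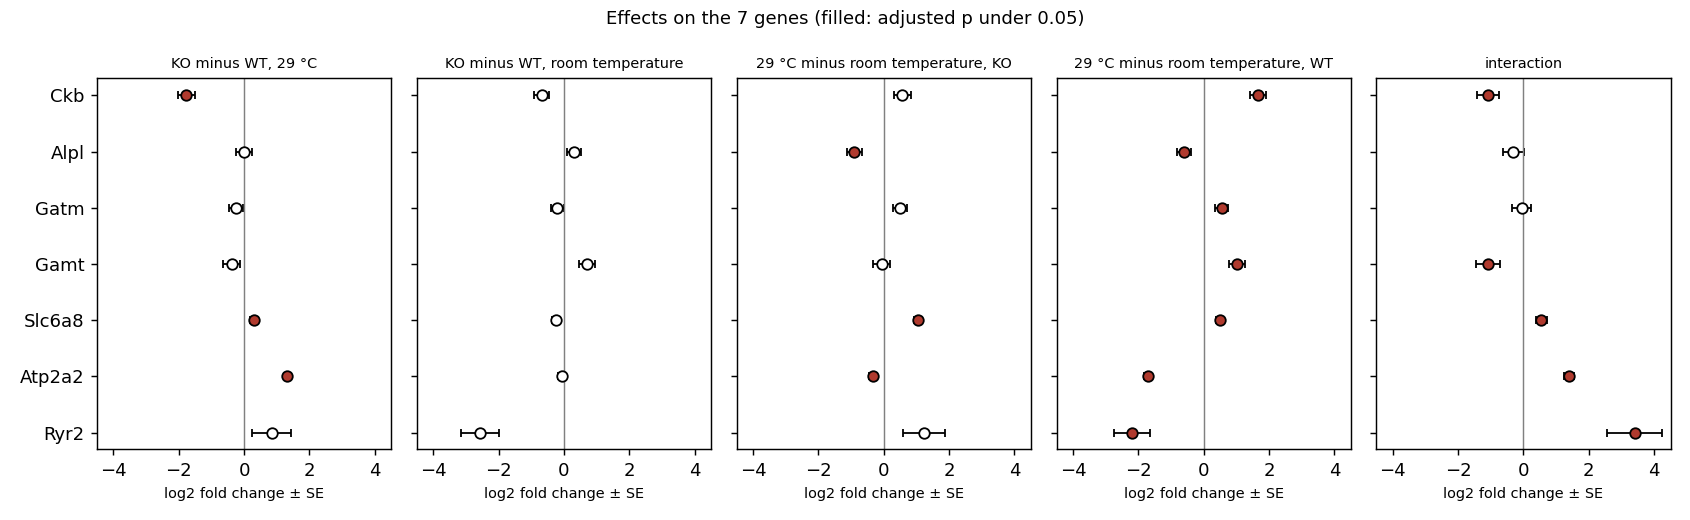
Log2 fold change ± SE of the 7 genes on the x axis in the 4 pairwise comparisons and the interaction, 1 panel each; filled points have an adjusted p under 0.05 (edgeR). Filled points number 3 for KO against WT at 29 °C, 0 for KO against WT at room temperature, 3 for housing in KO, 7 for housing in WT and 5 for the interaction.

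Creatine enters cells through SLC6A8, a sodium- and chloride-dependent carrier on the X chromosome (Slc6a8, ENSMUSG00000019558.14, GRCm38, chrX:73673150-73682502, plus strand). Slc6a8 was at 37.6, 37.8 and 33.9 CPM in KO at 29 °C, and at 29.8, 30.9, 25.2 and 32.0 CPM in WT at 29 °C. Its level was 15.5, 19.8, 15.2 and 20.1 CPM in KO at room temperature, and 20.5, 19.6, 20.4 and 22.9 CPM in WT at room temperature. All 3 libraries of KO at 29 °C were above all of WT at 29 °C, all 7 libraries at 29 °C were above all 8 at room temperature, and the genotypes overlapped at room temperature.

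With housing at 29 °C, Slc6a8 rose in KO by 1.05 ± 0.11 (log2 fold change ± SE, adjusted p = 4.74e-06, 2.07-fold) and in WT by 0.50 ± 0.11 (adjusted p = 0.000636, 1.41-fold), both with edgeR. KO exceeded WT at 29 °C by 0.31 ± 0.11 (adjusted p = 0.0381), and the difference at room temperature was -0.24 ± 0.11 (adjusted p = 0.424). The interaction was 0.55 ± 0.16 (adjusted p = 0.016). The genotype difference at 29 °C kept its sign but missed the threshold in 12 of 28 alternatives, among them leaving out mitochondrially encoded genes (0.26, adjusted p = 0.0807). It also missed it without the 3 libraries with skeletal muscle transcripts (0.30, adjusted p = 0.234), without KO at 29 °C replicate 1 (adjusted p = 0.106) or 2 (0.112), without WT at 29 °C replicate 1 (0.0593) or 3 (0.114), and without KO at room temperature replicate 3 (0.0744). The interaction missed it without that same KO library (0.44, adjusted p = 0.0508) and without the 3 skeletal muscle libraries (0.55, adjusted p = 0.0866).

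GATM (Gatm, ENSMUSG00000027199.14, chr2:122594467-122611303, minus strand) is the mitochondrial enzyme that forms guanidinoacetate from arginine and glycine, the first and usually rate-limiting step of creatine synthesis. Gatm was low throughout, at 2.52, 2.07 and 3.54 CPM in KO at 29 °C and 3.26, 3.22, 2.90 and 3.51 CPM in WT at 29 °C. At room temperature it had 1.59, 2.07, 2.09 and 1.87 CPM in KO and 2.32, 1.63, 2.69 and 2.12 CPM in WT. The WT libraries at 29 °C all lay above the WT libraries at room temperature, and 2 of the 3 KO libraries at 29 °C lay above all KO libraries at room temperature.

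Gatm rose in WT with housing at 29 °C by 0.56 ± 0.20 on the log2 scale (edgeR adjusted p = 0.0186), which missed the threshold without WT at room temperature replicate 2 (0.44, adjusted p = 0.0672). In KO the fitted change was 0.50 ± 0.21 (adjusted p = 0.0607), and it passed without KO at 29 °C replicate 2 (0.66, adjusted p = 0.026). Genotype differences were -0.25 ± 0.21 at 29 °C (adjusted p = 0.345) and -0.20 ± 0.20 at room temperature (adjusted p = 0.763), and the interaction was -0.05 ± 0.29 (adjusted p = 0.913).

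GAMT (Gamt, ENSMUSG00000020150.13, chr10:80258151-80261012, minus strand) methylates guanidinoacetate to creatine, with S-adenosylmethionine as the methyl donor. Gamt was at 6.58, 4.70 and 5.41 CPM in KO at 29 °C and 7.98, 9.37, 6.57 and 5.04 CPM in WT at 29 °C. KO at room temperature had 3.45, 7.67, 5.08 and 7.19 CPM, and WT at room temperature had 4.47, 3.14, 3.90 and 2.81 CPM. WT at room temperature had the lowest mean, and 3 of the 4 KO libraries at room temperature exceeded all of them.

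Housing at 29 °C raised Gamt in WT by 1.02 ± 0.25 on the log2 scale (edgeR adjusted p = 0.00163, 2.02-fold), while the fitted change in KO was -0.07 ± 0.26 (adjusted p = 0.851). KO against WT gave -0.38 ± 0.26 at 29 °C (adjusted p = 0.251) and 0.71 ± 0.25 at room temperature (adjusted p = 0.291). The interaction of -1.08 ± 0.36 (adjusted p = 0.0326) was lost in 14 of 27 alternatives. It was -0.63 (adjusted p = 0.216) without KO replicates 2 and 4 at room temperature, the KO libraries of that group with the lowest brown adipocyte marker sums, and -0.76 (adjusted p = 0.268) without the 3 libraries with skeletal muscle transcripts. Leaving out 1 of 8 single libraries also ended the call, with values from -1.06 to -0.93 and adjusted p from 0.0536 to 0.088. These were KO at 29 °C replicates 2 and 3, WT at 29 °C replicates 1 and 2, KO at room temperature replicates 2 and 4 and WT at room temperature replicates 2 and 4.

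CKB (Ckb, ENSMUSG00000001270.9, chr12:111669361-111672338, minus strand) transfers phosphate from ATP to creatine, and in brown adipocytes of mice it has been described as the kinase of the creatine cycle. Ckb was at 25.4, 28.5 and 29.9 CPM in KO at 29 °C and at 79.7, 71.9, 119.8 and 110.9 CPM in WT at 29 °C. At room temperature it was at 15.4, 15.8, 27.5 and 16.5 CPM in KO and at 35.3, 25.04, 20.9 and 40.0 CPM in WT. The 4 libraries of WT at 29 °C lay above all 11 others, and KO and WT overlapped at room temperature through KO replicate 3.

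At 29 °C Ckb was lower in KO than in WT by a log2 fold change of -1.78 ± 0.26 (edgeR adjusted p = 0.000123, 3.42-fold lower), a size exceeded by 2.98% of tested genes. At room temperature the difference was -0.69 ± 0.24 (adjusted p = 0.299). Housing at 29 °C raised Ckb in WT by 1.66 ± 0.24 (adjusted p = 2.8e-05), and the fitted change in KO was 0.57 ± 0.25 (adjusted p = 0.0821). Without KO replicate 3 at room temperature the KO change was 0.75 (adjusted p = 0.0171).

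The genotype difference in Ckb at 29 °C and the housing change in WT kept their direction and their call in all 28 alternatives. The interaction, -1.09 ± 0.35 (edgeR adjusted p = 0.0317), was negative in all 27 of its alternatives, from -1.47 to -0.89, and missed the threshold in 12 of them. Among these were the fits without the 3 libraries with skeletal muscle transcripts (-1.40, adjusted p = 0.0714), without KO at 29 °C replicate 1 (0.0792) or 2 (0.0653), without WT at 29 °C replicate 3 (0.0605) or 4 (0.0588), and without WT at room temperature replicate 2 (0.061) or 3 (0.0511).

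Endothelial markers, like Ckb, were highest in WT at 29 °C. All 10 were called lower in KO at 29 °C and higher with 29 °C housing in WT, and 8 had a negative interaction. The shares of all tested genes were 20.0%, 35.9% and 12.3%. Their summed level was 663 to 878 CPM in KO at 29 °C, 1532 to 2055 CPM in WT at 29 °C, 481 to 612 CPM in KO at room temperature and 574 to 728 CPM in WT at room temperature. All 10 endothelial markers were detected in every library. The white adipocyte marker sum was also highest in WT at 29 °C, at 261 to 597 CPM, with 1 of 4 markers called lower in KO. The part of either cell type in the Ckb result was not tested.

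Other creatine kinases were low outside the libraries with skeletal muscle transcripts. Ckm, the muscle kinase, was at 63.6 and 190.2 CPM in KO at 29 °C replicates 2 and 3 and at 140.2 CPM in WT at 29 °C replicate 2, and at most at 1.14 CPM in the other 12 libraries. Ckb made up 95.03% of counts over the 4 creatine kinase genes in KO at 29 °C replicate 1 (exact 95% interval 93.6 to 96.2%), but 29.1% (27.4 to 30.9%) in replicate 2 and 12.2% (11.4 to 12.9%) in replicate 3. In WT at 29 °C replicate 2 it made up 31.0% (29.9 to 32.1%). In the other 11 libraries the share was 94.4 to 100%. These intervals cover counting error only. The low shares stood in the 3 libraries with skeletal muscle transcripts, where the CPM of Ckb itself was 28.5 and 29.9 in KO and 71.9 in WT.

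The 3 genes whose starts follow are those that rose with 29 °C housing in WT and have an entry in the RefSeq table of promoters (GRCm38.p6). Each run is the 250 bases before the start site on the gene's strand, 5′ to 3′, all of them minus-strand genes. Capitals mark matches, on either strand, to CCAAT (the CCAAT box), TATAAA (the TATA box) or GGGCGG (the GC box).
Ckb, chr12:111672339-111672588: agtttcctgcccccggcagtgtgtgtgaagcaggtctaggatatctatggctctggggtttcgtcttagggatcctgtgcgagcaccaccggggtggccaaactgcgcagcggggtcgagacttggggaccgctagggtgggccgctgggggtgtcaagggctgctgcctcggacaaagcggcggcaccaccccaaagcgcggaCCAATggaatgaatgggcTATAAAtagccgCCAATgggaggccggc
Gamt, chr10:80261013-80261262: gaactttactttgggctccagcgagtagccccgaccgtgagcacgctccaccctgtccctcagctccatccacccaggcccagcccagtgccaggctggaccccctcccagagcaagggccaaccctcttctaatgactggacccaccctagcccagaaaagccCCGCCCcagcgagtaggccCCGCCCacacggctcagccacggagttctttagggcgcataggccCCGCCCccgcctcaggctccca
Gatm, chr2:122611278-122611527: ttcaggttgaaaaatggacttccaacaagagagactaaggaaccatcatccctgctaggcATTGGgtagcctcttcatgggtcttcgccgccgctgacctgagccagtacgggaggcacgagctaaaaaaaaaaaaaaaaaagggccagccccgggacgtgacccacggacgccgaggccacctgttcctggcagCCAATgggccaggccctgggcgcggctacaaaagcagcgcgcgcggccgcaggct
The Ckb run holds 2 CCAAT boxes and 1 TATA box, with the TATA box 28 bases before the start site. The Gatm run holds 2 CCAAT boxes, 1 of them read on the other strand, and the Gamt run holds 3 GC boxes, all on the other strand. None of these matches overlap each other. Of 32851 promoters of the same length, 33.8% hold a CCAAT box, 12.4% a TATA box and 32.7% a GC box. CACGTG (E-box, 6.02% of promoters), TGACGTCA (cAMP response element, 1.55%) and AAGGTCA (estrogen-related receptor half-site, 4.08%) were also searched on both strands and had no match in these 3 runs. No searched motif is shared by all 3 runs.

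ALPL (Alpl, ENSMUSG00000028766.10, chr4:137741733-137796384, minus strand) is the phosphatase that closes the creatine cycle. Alpl was at 11.2, 16.6 and 16.4 CPM in KO at 29 °C and 17.8, 17.2, 8.99 and 14.9 CPM in WT at 29 °C. It was at 35.5, 30.0, 25.8 and 18.7 CPM in KO at room temperature and 25.1, 20.4, 20.5 and 23.2 CPM in WT at room temperature. Within each genotype all libraries at 29 °C lay below all libraries at room temperature, while KO and WT overlapped at both temperatures.

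Alpl fell with housing at 29 °C in KO by 0.90 ± 0.24 on the log2 scale (edgeR adjusted p = 0.0062) and in WT by 0.60 ± 0.22 (adjusted p = 0.023). Without the 3 skeletal muscle libraries the KO change was -1.37 (adjusted p = 0.0175). The WT change missed the threshold without WT at 29 °C replicate 3 (-0.42, adjusted p = 0.0607) or WT at room temperature replicate 1 (-0.54, adjusted p = 0.0593). KO against WT gave -0.0039 ± 0.23 at 29 °C (adjusted p = 0.992) and 0.30 ± 0.21 at room temperature (adjusted p = 0.642). The interaction was -0.31 ± 0.32 (adjusted p = 0.509), and it was not called without the skeletal muscle libraries either (-0.67, adjusted p = 0.291). In WT the phosphatase fell where the kinase rose.

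SERCA2 (Atp2a2, ENSMUSG00000029467.15, chr5:122453513-122502225, minus strand) is the calcium pump of the endoplasmic reticulum outside fast skeletal muscle. Atp2a2 was at 195.7, 211.5 and 208.9 CPM in KO at 29 °C, against 80.6, 85.7, 67.4 and 94.0 CPM in WT at 29 °C. It was at 262, 256, 288 and 225 CPM in KO at room temperature and at 273, 301, 243 and 261 CPM in WT at room temperature. The WT libraries at 29 °C stood alone at the low end, the KO libraries at 29 °C lay below every library at room temperature, and KO and WT overlapped at room temperature.

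KO exceeded WT at 29 °C by a log2 fold change of 1.33 ± 0.11 (edgeR adjusted p = 6.31e-07, 2.51-fold), and the difference at room temperature was -0.06 ± 0.10 (adjusted p = 0.871). Housing at 29 °C lowered Atp2a2 in WT by a log2 fold change of -1.72 ± 0.11 (adjusted p = 1.81e-09), and in KO by one of -0.33 ± 0.11 (adjusted p = 0.026). The interaction was 1.39 ± 0.15 (adjusted p = 2.06e-05), a size exceeded by 7.47% of tested genes. It ran from 1.28 to 1.46 over 27 alternatives and was called in all of them.

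The small fall in KO missed the threshold in 7 of 28 alternatives, including the fits without KO at 29 °C replicate 1 (-0.30, adjusted p = 0.0847) or 3 (-0.34, 0.0541), without KO at room temperature replicate 1 (-0.32, 0.0506) and without the 3 skeletal muscle libraries (-0.48, 0.0716). The brown adipocyte marker sums given above, which include Ucp1, were likewise lowest in WT at 29 °C. With Ucp1 left out of the sums, KO and WT overlapped at 29 °C, so the separation of the genotypes in these sums rests on Ucp1. Of the 12 markers, 6 had a positive interaction and none a negative one, against 16.0% and 12.3% of tested genes. Their part in the Atp2a2 result was not tested.

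**Figure D3:**
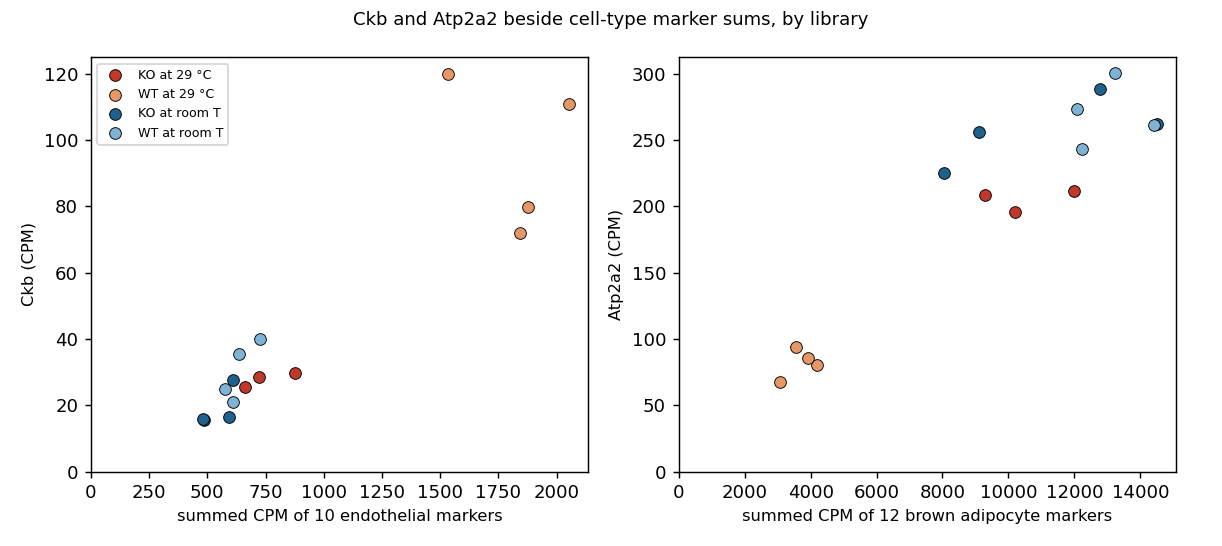
CPM of Ckb against the summed CPM of 10 endothelial markers (left) and CPM of Atp2a2 against the summed CPM of 12 brown adipocyte markers (right), 1 point per library, coloured by group. The 4 libraries of WT at 29 °C stand apart in both panels, at 1532 CPM or more of endothelial markers and 4193 CPM or less of brown adipocyte markers. Ucp1 is 1 of the 12 brown adipocyte markers, and with it left out the sums of KO and WT overlap at 29 °C.

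Atp2a2 was the leading SERCA gene, at 92.6% of SERCA counts in KO at 29 °C replicate 1 (exact 95% interval 92.1 to 93.2%) and 82.0 to 85.8% in WT at 29 °C replicates 1, 3 and 4. It held 95.3 to 97.0% in KO at room temperature and 96.1 to 97.3% in WT at room temperature. In the 3 libraries with skeletal muscle transcripts the share was 73.2% (KO at 29 °C replicate 2), 39.01% (KO at 29 °C replicate 3) and 37.5% (WT at 29 °C replicate 2), with Atp2a1, the SERCA gene of fast skeletal muscle, at 58.0, 306 and 127.5 CPM there. Atp2a3, known from blood and endothelial cells, was at 18.4 ± 2.8 CPM in KO at 29 °C (SD, n = 3), 15.2 ± 2.1 in WT at 29 °C, 9.59 ± 0.96 in KO at room temperature and 9.21 ± 1.13 in WT at room temperature (n = 4 each). It rose with 29 °C housing in KO (log2 fold change 0.93 ± 0.14, edgeR adjusted p = 6.07e-05) and in WT (0.72 ± 0.13, adjusted p = 0.000125), opposite to Atp2a2.

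Counts of Ckb came closest to those of Atp2a2 in WT at 29 °C, and exceeded them in 2 of its 4 libraries. For every 100 counts of Atp2a2 there were 13.6 ± 0.66 counts of Ckb in KO at 29 °C (SD, n = 3), 119.6 ± 41.1 in WT at 29 °C, 7.23 ± 1.66 in KO at room temperature and 11.3 ± 3.41 in WT at room temperature (n = 4 each). This ratio is taken within a library and does not depend on scaling between libraries; it was chosen after the values were seen. It was higher in WT at 29 °C than in any other library, with 84.0 to 177.7 counts against at most 15.3. Ckb and Atp2a2 each set WT at 29 °C apart from all other libraries, in opposite directions. For KO against WT at 29 °C and for housing in WT, a test on the ratio therefore had a fixed outcome and gives no support. The exact two-sided permutation p on the log2 ratio was 0.0286 for both, the smallest these group sizes allow, and 0.0572 after adjustment over 4 comparisons. For KO against WT at room temperature the exact p was 0.0857, and for housing in KO 0.0571 (adjusted 0.0857 and 0.0761). These values too were seen before the ratio was chosen, and the adjustment takes in the fixed tests. Their p-values give no support either.

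RYR2 (Ryr2, ENSMUSG00000021313.16, chr13:11553102-12106945, minus strand) is the calcium release channel best known from heart muscle. Ryr2 was rare, with 22, 12 and 12 counts in KO at 29 °C and 7, 8, 6 and 8 counts in WT at 29 °C. KO at room temperature gave 7, 5, 4 and 3 counts and WT at room temperature 70, 17, 22 and 5. In CPM these were 0.42 to 0.52 in KO at 29 °C, 0.21 to 0.32 in WT at 29 °C, 0.12 to 0.30 in KO at room temperature and 0.22 to 2.90 in WT at room temperature. The 3 libraries of KO at 29 °C were above all of WT at 29 °C and all of KO at room temperature, and WT at room temperature spanned more than the other groups together.

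Heart muscle transcripts stood in the library with the most Ryr2. Myh6, the myosin heavy chain of heart atria and of the adult mouse ventricle, had 1137 counts in WT at room temperature replicate 1, 73 in KO at room temperature replicate 2 and at most 2 in any other library. Pln, which encodes the SERCA2 inhibitor phospholamban, had 182 counts in that WT library and 6 to 44 elsewhere. Of the 5 heart markers, 2 passed the filter on low counts. Their part in the Ryr2 result was not tested. Values without WT at room temperature replicate 1 are given below for the housing changes, the interaction and the genotype difference at room temperature, all with edgeR.

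**Figure D4:**
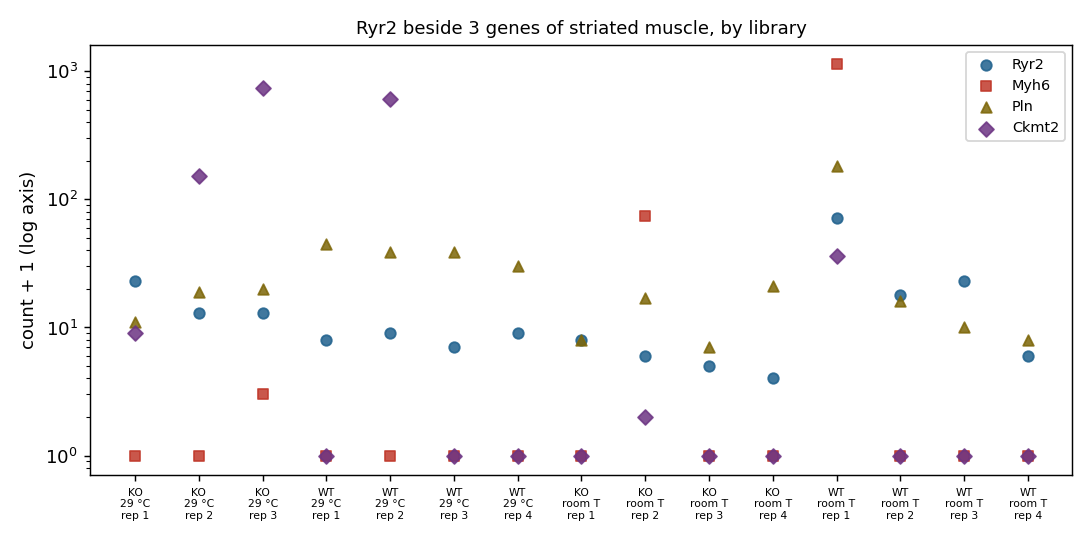
Counts plus 1 (log axis) of Ryr2, Myh6, Pln and Ckmt2 in each library, in group order along the x axis. WT at room temperature replicate 1 has the most Ryr2 (70 counts), Myh6 (1137) and Pln (182), and Ckmt2, the mitochondrial creatine kinase of striated muscle, is highest in KO at 29 °C replicate 3 (743) and WT at 29 °C replicate 2 (603).

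Ryr2 fell in WT with housing at 29 °C by a log2 fold change of -2.19 ± 0.55 (edgeR adjusted p = 0.00227), and by -1.26 (adjusted p = 0.0178) without WT at room temperature replicate 1. Its interaction was 3.40 ± 0.85 (adjusted p = 0.00717), and 2.47 (adjusted p = 0.0101) without that library. Without the 3 skeletal muscle libraries it was 3.52 (adjusted p = 0.0501). KO against WT gave 0.84 ± 0.61 at 29 °C (adjusted p = 0.283) and -2.57 ± 0.59 at room temperature (adjusted p = 0.0961). The room temperature value was -1.64 (adjusted p = 0.205) without WT replicate 1 and -2.91 (adjusted p = 0.0427) without WT replicate 4, and DESeq2 gave -2.59 (adjusted p = 0.00924). The fitted change with 29 °C housing in KO was 1.22 ± 0.64 (adjusted p = 0.134), and passed without WT at room temperature replicate 1 (1.22, adjusted p = 0.0395).

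Set against gene length (CPM per kilobase of the union of annotated exons, so a gene whose tissue uses a short transcript is understated), Atp2a2 led in 3 groups. It had 33.8 CPM per kb in KO at 29 °C, 42.4 in KO at room temperature and 44.3 in WT at room temperature, followed in each by Ckb or Alpl. In WT at 29 °C the leading gene was Ckb, with a mean of 33.0 CPM per kb, above Atp2a2 with 13.5, and their ranges did not overlap. Ckb had 9.65 CPM per kb in KO at 29 °C, 6.50 in KO at room temperature and 10.5 in WT at room temperature.

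The middle places went to Slc6a8, Alpl and Gamt, in differing order. Slc6a8 had 7.0 CPM per kb in KO at 29 °C and 5.66 in WT at 29 °C, Alpl 3.65 in both, and Gamt 3.85 in KO and 5.01 in WT. At room temperature Slc6a8 had 3.38 in KO and 4.01 in WT, Alpl 6.82 in KO and 5.53 in WT, and Gamt 4.05 in KO and 2.48 in WT. Of neighbours in the order, Gamt and Alpl overlapped in KO at 29 °C, Slc6a8, Gamt and Alpl overlapped stepwise in WT at 29 °C, and in KO at room temperature Alpl overlapped Ckb and Gamt overlapped Slc6a8, while Ckb and Gamt did not overlap. In WT at room temperature no neighbours overlapped down to Gatm. Gatm was below all of these in every group, with means of 0.64 to 1.07 CPM per kb, and Ryr2 below Gatm, with means of 0.0069 to 0.041.

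**Figure D5:**
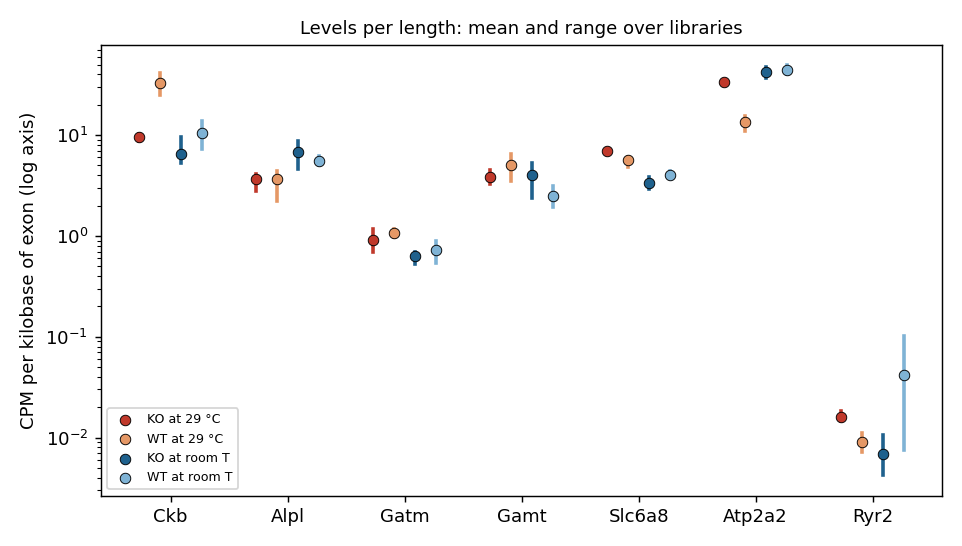
Mean CPM per kilobase of exon (points, log axis) and range over libraries (bars) for each of the 7 genes, by group. Ckb leads in WT at 29 °C with 33.0 CPM per kb, and Atp2a2 leads in the other 3 groups with 33.8 to 44.3.

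Of 13 listed genes that supply creatine synthesis, 10 were tested. At 29 °C, 4 were higher in KO and 1 lower, against a background of 24.7% and 20.0% of tested genes (median log2 fold change 0.25, against 0.04 over all tested genes). With 29 °C housing in WT 3 rose and 5 fell, against 35.9% and 32.8% (median -0.30, against 0.06). Mat2b, the regulatory subunit of the enzyme that makes S-adenosylmethionine, was at 73.9 ± 12.1 CPM in KO at 29 °C (SD, n = 3) and 42.1 ± 2.5 CPM in WT at 29 °C (n = 4). Its log2 fold change was 0.81 ± 0.11 (edgeR adjusted p = 1.89e-05), and its interaction was 1.06 ± 0.14 (adjusted p = 9.31e-05).

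Slc7a1, a carrier of arginine, was at 6.82 ± 2.27 CPM in KO at 29 °C and 17.6 ± 9.4 CPM in WT at 29 °C (log2 fold change -1.37 ± 0.34, edgeR adjusted p = 0.00452). It was at 2.06 ± 0.67 CPM in KO at room temperature and 2.93 ± 0.26 CPM in WT at room temperature, so that it rose with 29 °C housing in KO (1.72 ± 0.35, adjusted p = 0.00124) and in WT (2.59 ± 0.33, adjusted p = 7.03e-06). Gnmt, which competes with GAMT for S-adenosylmethionine, fell in KO with 29 °C housing (-2.41 ± 0.35, adjusted p = 5.09e-05), to 0.38 ± 0.12 CPM in KO at 29 °C against 2.02 ± 0.53 CPM in KO at room temperature. Its level was also lower at 29 °C in WT, with 0.24 ± 0.10 CPM against 2.10 ± 0.63 CPM at room temperature.

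Of the other phosphatases and genes of pyrophosphate handling, 3 of 6 listed were tested, and 2 were higher in KO at 29 °C. The background was 24.7% of tested genes higher and 20.0% lower, and 3 genes are too few for a result about the list. Phospho1, a phosphatase of phosphocholine and phosphoethanolamine, was at 288 ± 30.0 CPM in KO at 29 °C and 109.7 ± 11.6 CPM in WT at 29 °C (log2 fold change 1.39 ± 0.15, edgeR adjusted p = 4.53e-06). Ank, a membrane protein of pyrophosphate export, was at 106.2 ± 16.8 CPM in KO and 52.8 ± 15.7 CPM in WT at 29 °C (1.01 ± 0.20, adjusted p = 0.0011). Both also had a positive interaction (1.35 ± 0.21 for Phospho1 and 1.0 ± 0.28 for Ank), whereas that of Alpl was not called. The Ank interaction missed the threshold without the 3 skeletal muscle libraries (0.97, adjusted p = 0.084).

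Among calcium genes, 7 of 11 tested genes of mitochondrial calcium transport were higher in KO at 29 °C and none lower, against a background of 24.7% higher and 20.0% lower (median log2 fold change 0.47, against 0.04 over all tested genes). With 29 °C housing in WT 2 rose and 7 fell, against 35.9% and 32.8% of tested genes, and the interaction was positive for 6 and negative for none, against 16.0% and 12.3%. Letm1, a cation-proton exchanger of the inner membrane, was at 169 ± 24 CPM in KO at 29 °C and 80.9 ± 9.4 CPM in WT at 29 °C, against 453 ± 27 CPM in KO and 481 ± 23 CPM in WT at room temperature. Its interaction was 1.15 ± 0.15 (edgeR adjusted p = 7.14e-05). Mcu, the pore of the uniporter, was at 16.5 ± 1.2 CPM in KO and 11.2 ± 0.65 CPM in WT at 29 °C, with an interaction of 0.68 ± 0.13 (adjusted p = 0.00141) that missed the threshold without the 3 skeletal muscle libraries (0.53, adjusted p = 0.0547). Ccdc109b, an older symbol of Mcub, the uniporter's inhibitory subunit, rose with 29 °C housing in KO (2.23 ± 0.35, adjusted p = 0.000113) and in WT (2.82 ± 0.34, adjusted p = 1.92e-06).

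Of 7 genes of store-operated calcium entry, all tested, 4 were higher and 1 was lower in KO at 29 °C (median 0.57), and 3 had a positive interaction, against the same background. Stim1, the sensor of calcium in the store, was at 85.2 ± 5.8 CPM in KO at 29 °C and 52.3 ± 4.9 CPM in WT at 29 °C (log2 fold change 0.70 ± 0.10, edgeR adjusted p = 4.54e-05). Its paralog Stim2 went the other way, at 19.2 ± 2.4 CPM in KO and 26.1 ± 7.5 CPM in WT at 29 °C (-0.44 ± 0.17, adjusted p = 0.0398). The Stim2 call was lost without KO at 29 °C replicate 1 (-0.48, adjusted p = 0.0681) or 2 (-0.34, adjusted p = 0.17) and without WT at 29 °C replicate 3 (-0.46, adjusted p = 0.0533). It was also lost without WT at 29 °C replicate 4 (-0.24, adjusted p = 0.135), and without the 3 skeletal muscle libraries (-0.47, adjusted p = 0.205). Tmco1, a calcium leak channel of the endoplasmic reticulum, and Orai3, a channel of the plasma membrane, were higher in KO by 0.73 ± 0.11 and 0.57 ± 0.11 (adjusted p = 5.25e-05 and 0.000595).

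Release channels other than Ryr2, and the other SERCA genes, gave 1 lower and none higher of 6 tested in KO at 29 °C (median 0.15). The background was 20.0% of tested genes lower and 24.7% higher. The lower one was Itpr3, an inositol trisphosphate receptor, at 8.81 ± 1.60 CPM in KO and 12.2 ± 0.76 CPM in WT at 29 °C (log2 fold change -0.47 ± 0.14, edgeR adjusted p = 0.0103), and its call was lost without KO at 29 °C replicate 1 (-0.34, adjusted p = 0.0729). Its relative Itpr1 was more abundant and fell with 29 °C housing, to 85.3 ± 6.2 CPM in KO at 29 °C against 131 ± 7.8 CPM in KO at room temperature, and to 80.0 ± 5.9 CPM in WT at 29 °C against 132 ± 5.8 CPM in WT at room temperature. The adjusted p of the Itpr1 change was 3.54e-05 in KO and 6.64e-07 in WT.

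Of 4 tested SERCA regulators of 9 listed, 1 was higher in KO at 29 °C, Vmp1, which is known to raise SERCA activity (0.56 ± 0.09, edgeR adjusted p = 0.000118). Of 16 partners of the release channel, 3 were higher and 2 lower. These shares were near or below the background of 24.7% of tested genes higher and 20.0% lower in KO at 29 °C, and give no result about either list. The calmodulin-dependent kinase gene Camk2d was at 34.1 ± 1.7 CPM in KO and 20.2 ± 3.3 CPM in WT at 29 °C (0.76 ± 0.12, adjusted p = 0.000113), and its relative Camk2g was at 17.6 ± 0.73 CPM in KO and 28.3 ± 3.8 CPM in WT (-0.68 ± 0.13, adjusted p = 0.000715).

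Of 6 buffers and chaperones of stored calcium, 2 were higher in KO at 29 °C and 1 lower. This was near the background of 24.7% of tested genes higher and 20.0% lower, and gives no result about the list. Calr, the calcium-binding chaperone calreticulin, was at 266 ± 16 CPM in KO and 177 ± 16 CPM in WT at 29 °C (0.58 ± 0.11, edgeR adjusted p = 0.000381), whereas Casq2, the calsequestrin of heart and slow muscle, was at 3.65 ± 0.68 CPM in KO and 7.14 ± 2.06 CPM in WT (-0.97 ± 0.34, adjusted p = 0.029). The Casq2 call was lost without KO at 29 °C replicate 1 (-0.96, adjusted p = 0.0787) or 2 (-0.84, adjusted p = 0.113), without WT at 29 °C replicate 1 (-0.84, adjusted p = 0.0734) or 2 (-0.89, adjusted p = 0.0595), and without the 3 skeletal muscle libraries (-0.96, adjusted p = 0.213). Of 5 tested genes of calcium extrusion across the plasma membrane (7 listed), 1 was lower in KO at 29 °C, no more than the background of 20.0%. This was the pump gene Atp2b4, at 20.7 ± 8.1 CPM in KO and 45.7 ± 1.9 CPM in WT (-1.14 ± 0.19, adjusted p = 0.000185). None of the tested genes of these lists was called between KO and WT at room temperature by edgeR.

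Genes with the most similar pattern were sought among the 9540 or 9541 other genes averaging 5 CPM or more, by Pearson's r of log2 CPM over the 15 libraries, which share their groups and scaling. For Ckb these were Sertad2 (r = 0.97), Rasgrf2 (0.96) and Casz1 (0.96), and for Atp2a2 Lrpprc (0.99), Tm9sf4 (0.99) and Rragc (0.99). For Slc6a8 they were Phgdh (0.95), Asap2 (0.93) and H2-Aa (0.93), for Gatm Mcm3, Igfbp7 and Tagln2 (0.90 to 0.91), for Gamt Xdh, Pfkfb4 and Igsf8 (0.88 to 0.91), and for Alpl Pmm2, Poc1a and Ehbp1l1 (0.88 to 0.89). For Ryr2 the highest was Nr4a3 with 0.69. When the group means were subtracted first, r of the leading gene was 0.74 for Ckb with Sertad2 and 0.65 for Atp2a2 with Lrpprc, and only Igsf8, for Gamt, stayed among the first 3 of its gene (r = 0.94).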

How the data were processed

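The deposited table holds expected counts made by the authors with RSEM, per the file header and the submitters' processing notes, 1 value per gene symbol and library; 7.26% of entries have decimals, and values were rounded to whole counts. The submitters' processing notes and the labels' protocols name paired reads of 150 bp, STAR 2.7.10a, RSEM 1.2.28 and the build mm10; the strand setting of the counting is not given there. Total counts were 23977448 to 38800967 per library. Each of the 15 columns carries the description of 1 sample.

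Genes passing filterByExpr (minimum count 10, by group; 15083 genes) were fitted with edgeR 4.0.16 (robust quasi-likelihood, TMM, 4 groups, 11 residual degrees of freedom; R 4.3.3, limma 3.58.1), tested on simulated data first. SEs are the log2 fold change over the root of F. P-values were adjusted by the Benjamini-Hochberg method over all genes tested, with calls under 0.05. Log2 CPM used a prior count of 1. The 7 genes and all lists were chosen with earlier results of these data known. The text names the 7 genes, Park7 and Ucp1, genes of the wider lists from the up to 3 called each way per comparison with the smallest p and a mean of at least 1 CPM, and the 3 genes most like each of the 7; Ckm, Atp2a1, Atp2a3, Myh6, Pln and Ckmt2 were given for their values in single libraries. Alternatives were DESeq2 1.42.0 or limma-voom in place of edgeR, RLE size factors, other gene sets (without mitochondrially encoded genes, unfiltered, or above 1 CPM in 4 libraries), a fit to the pair of groups alone, the replicate number as a block, a limit of 0.01 on the adjusted p, a skeletal muscle score as covariate, and the omission of libraries. Leaving out the 3 libraries with skeletal muscle transcripts together with WT at room temperature replicate 1 was chosen after the data were seen. Gene positions came from the GRCm38 annotation, the build named mm10 by the authors, and promoters from RefSeq GRCm38.p6, where 5 of the 7 genes had an entry.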

Additional observations from a re-analysis of the deposited data

Results flagged for a closer look

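Ckb stood at 27.5 CPM in KO at room temperature replicate 3, far from the 15.4, 15.8 and 16.5 CPM of the other 3 libraries of that group by Dixon's test. Of 21 groups of 4 libraries tested in this way, chance flags about 1 in 20.

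By the interaction term of the edgeR model, 3 of the 7 genes were called positive and 2 negative. The background was 16.0% of tested genes called positive and 12.3% called negative. The call was lost in 12 of 27 alternatives for Ckb and in 14 of 27 for Gamt. The interaction on the log2 scale was 1.39 for Atp2a2, 3.40 for Ryr2, 0.55 for Slc6a8, -1.09 for Ckb and -1.08 for Gamt. The Atp2a2 value rests on 1950 counts or more per library, and the Ryr2 value on 3 to 70 counts per library.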

How the results depend on the processing

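Of 4410 recomputed values, 4090 kept their direction and side of the threshold or moved within the limits set, 280 missed the threshold, 9 passed it and 31 changed sign. Whether the replicate numbers pair the libraries could not be told with 3 or 4 libraries a group. Correlations of same-numbered libraries ran from -0.28 to 0.33, and those of differently numbered ones from -0.61 to 0.50. Between genotypes, 1 of 4 same-numbered pairs passed 0.1 at room temperature and 2 of 3 at 29 °C. With the replicate block 3 of the 7 genes were called in the interaction, against 5 without it. Ckb and Gamt were lost, both with an edgeR adjusted p of 0.0517. The counts of all genes called under the block were 6339 for KO against WT at 29 °C, 25 at room temperature, 10270 for housing in WT, 6691 in KO and 4045 for the interaction.

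Of the 7 genes, the interaction called 2 at an adjusted p under 0.01, where it called 2304 genes over all. Without the skeletal muscle libraries 1 library of KO at 29 °C is left. The interaction calls of Slc6a8, Gamt, Ckb and Ryr2 did not hold there, nor when WT at room temperature replicate 1 was left out as well. Housing in KO called 5 with only the libraries compared, against 3 in the main fit, while the genes called over all were 6333 against 6940. KO against WT at room temperature called 1 with DESeq2, among 228 genes over all. Leaving out single libraries gave 2 to 3 of the 7 for KO against WT at 29 °C, 0 to 1 at room temperature, 6 to 7 for housing in WT, 2 to 4 in KO and 3 to 5 for the interaction.

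Over all genes, KO against WT at 29 °C called 6747, but 4229 without the skeletal muscle libraries and 3893 without those and WT at room temperature replicate 1. At room temperature it called 36, but 228 with DESeq2, 4 at an adjusted p under 0.01, 13 and 9 without those libraries and 5 without KO replicates 2 and 4. Housing in KO called 6940, but 4171 with the skeletal muscle score, 4129 and 3789 without those libraries, and the interaction 4272, but 2304 at an adjusted p under 0.01 and 2363 without muscle libraries of either kind. Leaving out single libraries gave 5374 to 6725, 5 to 60, 9781 to 10529 (housing in WT), 5490 to 7273 (in KO) and 3277 to 4563 genes (interaction).

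Values that changed sign were small except for muscle genes. Alpl in KO against WT at 29 °C was 0.00 with limma-voom and -0.38 to 0.16 over all alternatives (-0.18 to 0.16 without single libraries), with 0.10, 0.08 and 0.16 without WT replicate 1, WT replicate 2 and KO replicate 1. Gamt with housing in KO was 0.00 with limma-voom, 0.09 without the skeletal muscle libraries (and without both kinds), 0.38 without KO replicates 2 and 4 at room temperature, and -0.25 to 0.09 without single libraries. Atp2a2 in KO against WT at room temperature was 0.03 without KO replicates 2 and 4, and the Gatm interaction was -0.28 to 0.11 without single libraries. Park7's interaction was -0.04 to 0.20 without single libraries. Ucp1 with housing in KO was -0.01 with no filter or the skeletal muscle score, -0.09 and -0.10 without the muscle libraries, -0.34 without KO replicates 2 and 4 at room temperature and -0.10 to 0.24 without single libraries; in KO against WT at room temperature it was 0.09 without those replicates. With housing in KO, Atp2a1 was -0.57, Casq1 -2.07 and Ckmt2 -0.19 with the skeletal muscle score, and Casq1 was -2.89 without the muscle libraries; these 3 genes are high in the libraries left out or modelled. For the others the cause was not tested. Ryr2 gave no value under the stricter filter, which it did not pass. With only the libraries compared it gave none between the room temperature groups and none for housing in WT.

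Limits: 15 libraries, 3 of them with skeletal muscle and 1 with heart muscle transcripts, and no batch given. Ryr2, with 3 to 70 counts per library, is the least precise of the 7. Bulk levels mix cell types whose markers differ between groups.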

Other observations

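Markers of other cell types differed between the groups as well, in summed CPM per library. Their calls at 29 °C stand against 24.7% of tested genes called higher in KO and 20.0% called lower. Lymphocyte markers (7 genes) were at 16.9 to 19.6 CPM in KO at 29 °C, 3.98 to 6.21 in WT at 29 °C, 2.38 to 5.10 in KO at room temperature and 2.36 to 3.46 in WT at room temperature, and 6 of 7 were called higher in KO at 29 °C by edgeR. Macrophage markers (8 genes) were at 336 to 490 CPM in KO at 29 °C, 192 to 296 in WT at 29 °C, 72.2 to 158 in KO at room temperature and 82.0 to 109.9 in WT at room temperature, with 3 of 8 called higher in KO at 29 °C. Red cell markers (5 genes) were at 1457 to 2774 CPM in KO at 29 °C and 2764 to 6056 in WT at 29 °C, with all 5 called lower in KO. White adipocyte markers (4 genes) were at 149.9 to 246 CPM in KO at 29 °C and 261 to 597 in WT at 29 °C, with 1 called lower in KO. At room temperature they were at 50.5 to 168 CPM in KO and 53.0 to 122 CPM in WT. Smooth muscle and pericyte markers (7 genes) were at 458 to 526 CPM in KO at 29 °C and 542 to 761 in WT at 29 °C, with 1 called higher and 4 lower in KO. Of the nerve and Schwann cell markers 2 of 6 tested were called higher in KO at 29 °C, and of the neutrophil markers 0 of 3.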
